A study of Mus musculus and Rattus norvegicus with 21 samples.

Results

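Thyroid hormone leaves the follicle mainly as thyroxine (T4), and the genes that convert it, carry it across membranes and read it inside cells were examined here in the mouse thyroid gland. The set held 9 genes of the 21000 protein-coding genes in the annotation. They were the deiodinases Dio1, Dio2 and Dio3, the transporters Slc16a10, Slc7a8 and Slco1c1, the nuclear receptors Thra and Thrb, and Crym, a cytosolic protein that binds T3. Members were chosen by function, and each was described by the peaks of 2 factors, NKX2.1 and PAX8, from 50 kb before to 50 kb after the gene, and by the H3K4me3 and H3K27me3 regions over it and within 1 kb of its annotated starts.

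Chromatin immunoprecipitation with sequencing (ChIP-seq) had been done on whole thyroid glands of C57BL/6 mice, and 10 of the 21 samples of the series held a peak list of mouse thyroid. The libraries of both factors came from wild-type (WT) mice on a low iodine diet (LID). The 2 histone marks were profiled in WT and Glis3KO mice, on a normal diet (ND, NIH-31) or the LID, and histone values are given throughout in the order WT-ND, then Glis3KO-ND, then WT-LID, then Glis3KO-LID. All of these mice were labelled as 1 month old, and the labels name the knockout allele B6.Glis3<tm2(mCherry)Amj>. The study's methods instead give Glis3-EGFP mice, older and longer on the LID, for the factor libraries and another allele number for the knockout, so factor peaks and histone regions may come from different kinds of mice. Every combination of antibody, genotype and diet had 1 library. The spread between replicates was therefore unknown, no test was run, and a difference between libraries below is a difference between those libraries and not one shown for a genotype or a diet.

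T4 is a prohormone. DIO1 and DIO2 remove an outer-ring iodine and make the active hormone T3, and DIO3 removes an inner-ring iodine and inactivates both T4 and T3. SLC16A10 carries T3, T4 and aromatic amino acids, SLC7A8 is the light chain of an amino acid exchanger that also takes thyroid hormones, and SLCO1C1 is a T4 transporter known from brain vessels. THRA and THRB are ligand-dependent transcription factors that bind DNA mostly with a retinoid X receptor. NKX2.1, a homeodomain factor, and PAX8, a paired-domain factor, maintain the identity of thyroid follicular cells. H3K4me3 marks active or poised promoters, and H3K27me3 is the mark placed by Polycomb complexes.

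The NKX2.1 list held 46636 peaks and the PAX8 list 51586, all 300 bp wide. H3K4me3 lists were of like size, from 15692 to 17044 regions. H3K27me3 lists were not, since the Glis3KO-LID library held 18040 regions over 55.11 Mb and the other 3 held 2631 to 4116 regions over 7.47 to 13.26 Mb. The Glis3KO-LID library therefore stood apart, and each H3K27me3 value that rests on it is given with the other 3 beside it. The Glis3 start itself had H3K4me3 over 1337, 1548, 1311 and 1356 bases in the 4 libraries, which does not check the genotype, as region lists do not show the allele. Of 8 marker genes of thyroid follicular cells, 7, 8, 6 and 8 had H3K4me3 at a start in that order. The marker Tg had none in either WT library. Of the markers of other cells in or near the gland, none of 4 immune, 4 skeletal muscle and 2 parathyroid genes had H3K4me3 in any library. Endothelial markers had it in 3, 2, 4 and 4 of 4, C cell markers in 3, 3, 3 and 2 of 5, fibroblast markers in 2, 1, 2 and 1 of 4, and adipocyte markers in 1, 0, 1 and 1 of 3. In whole glands, a mark carried by fewer cells and a weaker mark in each cell cannot be told apart.

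The sequences that the factor results turn on are given first. For each of the 5 members with an overlapping NKX2.1 and PAX8 pair, the NKX2.1 peak of the pair nearest a start is shown, passing over pairs in exons of RefSeq or GENCODE transcripts, predicted ones included (at Thrb, the pair at the first start was passed over for such exons), and 1 peak with PAX8 alone at a deiodinase start is added, which was chosen after its values were seen. They were read from mm10 on the strand of the gene. The Dio1 peak lies at chr4:107302658-107302957 (minus strand, intron 1), that of Slc16a10 at chr10:40161155-40161454 (minus, upstream of the gene), that of Slc7a8 at chr14:54805717-54806016 (minus, upstream, partly over a processed pseudogene of the GENCODE annotation), that of Thra at chr11:98722008-98722307 (plus, upstream, in an intron of Med24) and that of Thrb at chr14:17685537-17685836 (plus, intron 1). The added sequence is the part of the PAX8 peak over the Dio1 start that lies upstream of the gene, chr4:107307170-107307349 (minus). Capitals mark matches on either strand to TCAAG or CACTNNAG (letters of NKX2 type sites), GCNTGAC (paired-domain type) or AGGTCA (the core letters of nuclear receptor sites).
Dio1 intron 1, NKX2.1 peak: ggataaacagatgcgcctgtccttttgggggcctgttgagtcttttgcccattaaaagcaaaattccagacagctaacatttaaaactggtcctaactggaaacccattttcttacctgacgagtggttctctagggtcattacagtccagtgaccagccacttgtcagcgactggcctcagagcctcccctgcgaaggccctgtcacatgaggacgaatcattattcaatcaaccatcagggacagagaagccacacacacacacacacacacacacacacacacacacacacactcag
Slc16a10 upstream, NKX2.1 peak: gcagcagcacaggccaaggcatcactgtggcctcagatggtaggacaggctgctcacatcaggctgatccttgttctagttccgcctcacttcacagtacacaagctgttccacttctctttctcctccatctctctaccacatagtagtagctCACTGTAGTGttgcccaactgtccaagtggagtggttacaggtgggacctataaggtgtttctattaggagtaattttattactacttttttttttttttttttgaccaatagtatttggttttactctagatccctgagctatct
Slc7a8 upstream, NKX2.1 peak: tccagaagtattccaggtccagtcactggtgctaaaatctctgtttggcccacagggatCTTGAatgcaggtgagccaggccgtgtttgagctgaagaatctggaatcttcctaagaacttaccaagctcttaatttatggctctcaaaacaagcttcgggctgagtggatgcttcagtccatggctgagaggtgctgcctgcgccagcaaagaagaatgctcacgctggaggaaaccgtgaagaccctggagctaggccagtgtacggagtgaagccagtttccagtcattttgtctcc
Thra upstream, NKX2.1 peak: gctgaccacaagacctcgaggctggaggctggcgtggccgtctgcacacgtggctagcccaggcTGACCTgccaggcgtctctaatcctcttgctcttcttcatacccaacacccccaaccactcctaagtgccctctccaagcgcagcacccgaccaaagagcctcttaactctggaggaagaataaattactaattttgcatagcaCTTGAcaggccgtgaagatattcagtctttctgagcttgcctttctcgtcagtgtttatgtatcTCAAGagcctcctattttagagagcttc
Thrb intron 1, NKX2.1 peak: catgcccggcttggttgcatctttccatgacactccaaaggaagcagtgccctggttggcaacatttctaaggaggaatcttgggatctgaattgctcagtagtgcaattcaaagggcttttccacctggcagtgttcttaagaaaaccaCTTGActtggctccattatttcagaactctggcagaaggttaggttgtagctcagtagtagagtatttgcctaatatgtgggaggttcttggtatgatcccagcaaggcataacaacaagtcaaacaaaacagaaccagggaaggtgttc
Dio1 start, upstream part of the PAX8 peak: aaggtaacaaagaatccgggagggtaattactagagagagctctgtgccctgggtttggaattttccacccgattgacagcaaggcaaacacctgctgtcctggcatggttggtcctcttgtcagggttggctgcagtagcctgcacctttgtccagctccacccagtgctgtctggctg

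The letters TCAAG were present in the Slc7a8, Thra and Thrb peaks, with 1, 2 and 1 matches. The Slc16a10 peak held CACTNNAG on both strands, the matches lying at positions 155 to 162 and 157 to 164 from its 5′ end. The Thra peak also held AGGTCA once. Neither Dio1 sequence held any of the 4 motifs, and GCNTGAC was in none of the sequences shown. For comparison, TCAAG was present in 64.8% of all NKX2.1 peaks, 57.1% of all PAX8 peaks and 40.7% of 32851 RefSeq promoters (GRCm38) of the 300 bp a peak has. CACTNNAG was present in 35.9%, 28% and 16% of them, GCNTGAC in 12.9%, 19.8% and 10.7%, and AGGTCA in 21.7%, 23% and 16.3%. Some letters can count for more than one motif, as CACTNNAG can hold TCAAG on the other strand and GCNTGAC shares TGAC with the reverse of AGGTCA. These matches are descriptions of letters, and a sequence without a match says only that these letters are not in this window.

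Factor peaks were unevenly spread over the 9 genes. NKX2.1 had at least 1 peak over the gene or its flanks in 8 of 9 members, against 79.1% of all protein-coding genes, and PAX8 in 6 of 9, against 80.7%. A pair, an NKX2.1 and a PAX8 peak sharing at least 1 bp, was present for 5 of 9 (Dio1, Slc16a10, Slc7a8, Thra and Thrb), against 64.8%. With 9 genes, these shares are near the background. The 9 windows held 51 NKX2.1 peaks, 45 PAX8 peaks and 27 pairs in 1566.2 kb. That came to 3.26 NKX2.1 and 2.87 PAX8 peaks per 100 kb, where the whole assembly had 1.71 and 1.89. Windows around genes are richer in peaks than the assembly, and the median density per window was 2.51 NKX2.1 peaks per 100 kb for the members and 2.51 for all protein-coding genes, and 2.31 and 2.8 for PAX8.

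**Figure D1:**
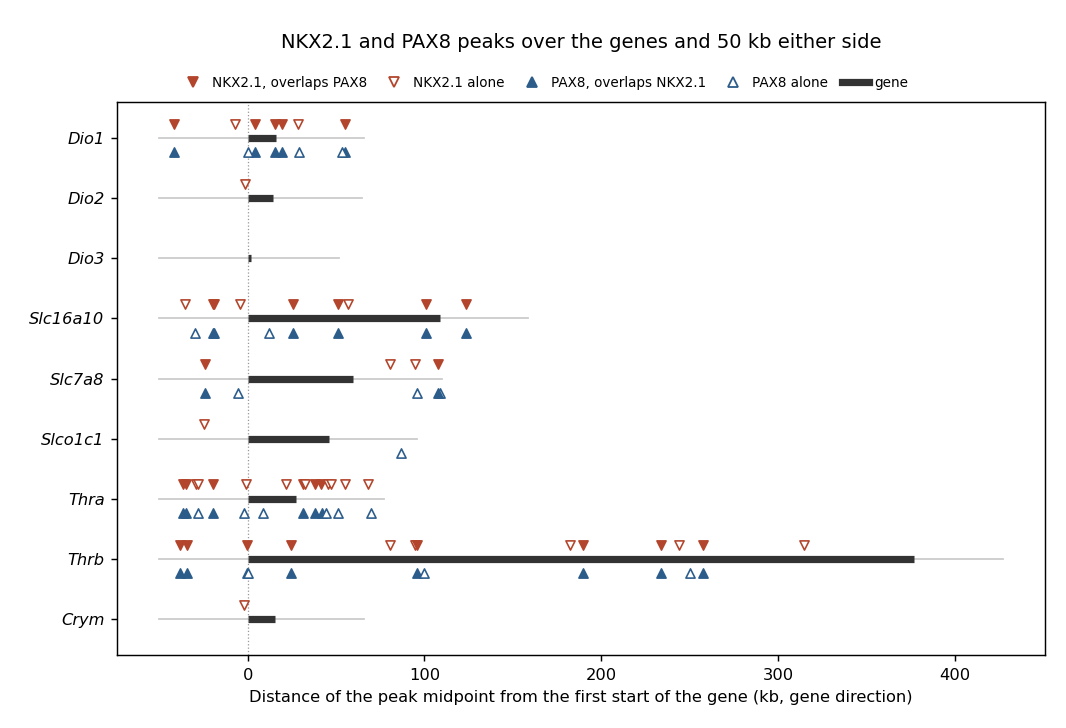
Peaks of NKX2.1 (triangles above each line) and PAX8 (triangles below) by the distance of their midpoint from the first start of the gene in kb, for the 9 members and 50 kb either side, 1 library per factor. Filled symbols overlap the other factor, and the thick bar is the gene. Dio1, Slc16a10, Thra and Thrb carried most of the peaks, 51 of NKX2.1 and 45 of PAX8 in all, whereas the Dio3 line is empty.

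Where the factors had a peak near these genes, they often shared it, as they did over all peaks of the lists. Of the 51 NKX2.1 peaks, 52.9% overlapped a PAX8 peak (95% Wilson interval 39.5 to 65.9%), where 50.8% of all NKX2.1 peaks did. Of the 45 PAX8 peaks, 60% overlapped an NKX2.1 peak (45.5 to 73%), where 45.9% of all PAX8 peaks did. The midpoints of paired peaks lay a median of 47 bp apart, with a range of 1 to 269 bp. Both shares had the background inside their interval, which covers counting error only and is not a test. The intervals take the peaks as independent, though many lie in the same windows, and the same pairs enter both shares. Of the pairs, 10 lay in a member gene and 17 in a flank, and a peak in a flank may belong to a neighbour.

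Peaks close to a start were counted separately. NKX2.1 had a peak within 5 kb of a start in 6 of 9 members (Dio1, Dio2, Slc16a10, Thra, Thrb and Crym), against 35.4% of all protein-coding genes. Both values are from the deposited list, and the study's own calls give no NKX2.1 binding within 5 kb for Dio2. PAX8 had one in 3 of 9 (Dio1, Thra and Thrb), against 42%. A pair within 5 kb was present for Dio1 and Thrb, 2 of 9, against 16.9%.

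Among the deiodinases, Dio1 had peaks of both factors, Dio2 a single NKX2.1 peak and Dio3 none. Dio1, the deiodinase that is abundant in thyroid, liver and kidney, lies at chr4:107291465-107307168 on the minus strand. Its window held 7 NKX2.1 peaks, 8 PAX8 peaks and 5 pairs, or 6.05 and 6.91 peaks per 100 kb. One pair lay in intron 1 (NKX2.1 chr4:107302658-107302957, PAX8 chr4:107302683-107302982), with midpoints 4361 and 4336 bp downstream of the start. This is the first of the sequences printed above. Another lay in exon 4 (NKX2.1 chr4:107291889-107292188, PAX8 chr4:107291862-107292161), about 15.1 kb downstream, near the 3′ end of the gene. PAX8 without NKX2.1 sat over the start itself (chr4:107307050-107307349), with its midpoint 31 bp upstream. Of the peaks in the flanks, some lay in the neighbours Lrrc42, Hspb11 and Yipf1, among them an NKX2.1 peak 94 bp from the Yipf1 start and a PAX8 peak 41 bp from the Hspb11 start.

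Dio2, which makes T3 inside the cells that express it, had 1 NKX2.1 peak in its whole window of 114.5 kb and no PAX8 peak. The peak had its midpoint 1643 bp upstream of the start. The list holds no score, so no stricter threshold could be applied here. The study itself lists Dio2 without NKX2.1 binding within 5 kb of the start, so this peak is not among its calls. Dio3 (chr12:110279230-110281097, plus strand), the inactivating enzyme, is a gene of 1868 bp in an imprinted domain. It was the member with no peak of either factor in the gene or 50 kb either side.

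The transporters differed in the same way. Slc16a10 (chr10:40033535-40142254, minus strand) had 9 NKX2.1 peaks, 8 PAX8 peaks and 6 pairs. Its gene body held 3 of these pairs, with NKX2.1 peaks at chr10:40116332-40116631 and chr10:40091013-40091312 in intron 1 and at chr10:40041309-40041608 in intron 4. They lay 25.8, 51.1 and 100.8 kb downstream of the start. The PAX8 peaks of these pairs were at chr10:40116354-40116653, chr10:40091080-40091379 and chr10:40041323-40041622. A further 2 pairs lay side by side upstream, 19.1 and 19.7 kb from the start, and the nearest peak of all was NKX2.1 without PAX8, 4514 bp upstream. The last pair lay in the neighbour Mfsd4b1.

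Slc7a8 (chr14:54722215-54781886, minus strand) had 4 NKX2.1 and 5 PAX8 peaks and 2 pairs, with no peak of either factor inside the gene. The peak nearest its start was PAX8 without NKX2.1, 5713 bp upstream. The others lay 24.0 kb upstream or beyond the 3′ end, several of them in or at the start of Acin1 and 1700123O20Rik. Slco1c1 (chr6:141524354-141570177, plus strand) had 1 NKX2.1 peak, 24.7 kb upstream and inside Pde3a, and 1 PAX8 peak 86.6 kb downstream of the start. No peak lay in the gene itself, which spans 45.8 kb.

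The receptors carried the most peaks. Thra (chr11:98741785-98769006, plus strand) had 15 NKX2.1 and 12 PAX8 peaks and 6 pairs in 127.2 kb, the highest densities among the members at 11.8 and 9.43 per 100 kb. Its gene body held 1 peak of each factor, PAX8 at chr11:98750217-98750516 in intron 1 and NKX2.1 at chr11:98763318-98763617 in intron 7, which did not overlap. Upstream of the start, NKX2.1 lay at 1181 bp and PAX8 at 2390 bp. All 6 pairs lay in the flanks. Of these, 3 were in Med24, a subunit gene of the Mediator complex, and 1 in Nr1d1, whose 3′ end overlaps that of Thra on the other strand. Other flank peaks lay in or near Msl1, Casc3 and Csf3. Most peaks of the Thra window thus lay outside the gene.

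Thrb (chr14:17660960-18038088, plus strand) had 13 NKX2.1 peaks, 11 PAX8 peaks and 8 pairs. Its window of 477.1 kb is the longest of the set, and the densities were 2.72 and 2.31 per 100 kb. In contrast to Thra, most peaks lay inside the gene, 10 of NKX2.1 and 8 of PAX8. At the first start, NKX2.1 (chr14:17660303-17660602) and PAX8 (chr14:17660126-17660425) formed a pair 508 and 685 bp upstream. PAX8 without NKX2.1 sat over the start (chr14:17660730-17661029), with its midpoint 81 bp upstream. Intron 1 held pairs with NKX2.1 peaks at chr14:17685537-17685836 and chr14:17756790-17757089, 24.7 and 96.0 kb downstream. Their PAX8 peaks were at chr14:17685519-17685818 and chr14:17756521-17756820. Intron 2 held 3 pairs, with NKX2.1 at chr14:17850491-17850790, chr14:17894755-17895054 and chr14:17918323-17918622 and PAX8 at chr14:17850414-17850713, chr14:17894837-17895136 and chr14:17918408-17918707. The second curated start of Thrb, at position 17981644 inside the gene, had no peak within 5 kb, the nearest being NKX2.1 at 5698 bp.

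Crym (chr7:120186380-120201989, minus strand) had 1 NKX2.1 peak and no PAX8 peak. The peak (chr7:120203710-120204009) lay 1870 bp upstream of the Crym start and, with its midpoint 105 bp away, over the start of Abca14 on the other strand, so its nearest start was not that of Crym.

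**Figure D2:**
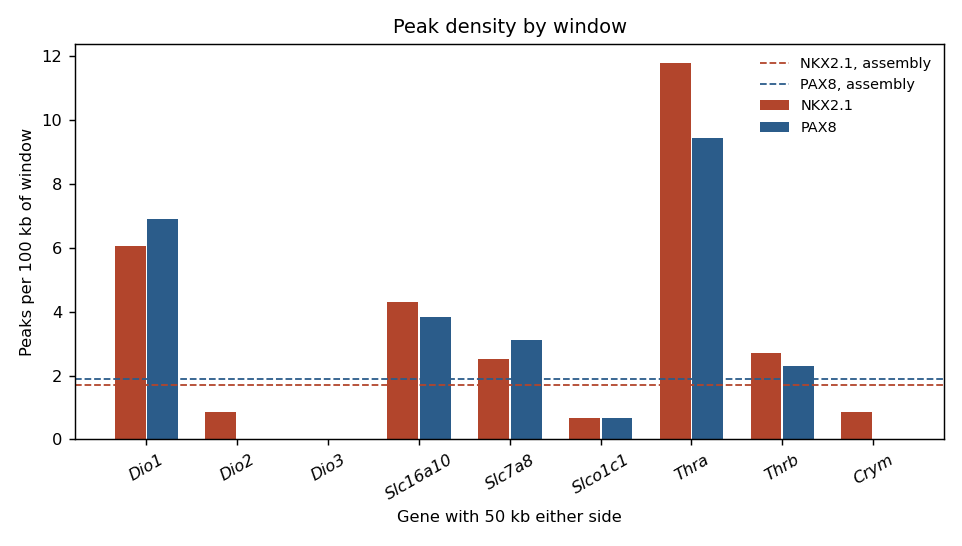
Peaks of NKX2.1 and PAX8 per 100 kb of window (bars, 1 library per factor, no error bars) for each gene and 50 kb either side, with dashed lines at the density over the whole assembly, 1.71 and 1.89. Dio2, Dio3, Slco1c1 and Crym lie under both lines, and Thra is highest at 11.8 and 9.43.

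The peaks of these windows were also placed against the histone regions of WT-LID, the group with the genotype and diet on the labels of the factor libraries. Of the 51 NKX2.1 peaks, 10 (19.6%) overlapped an H3K4me3 region, where 10.3% of all NKX2.1 peaks did. Of the 45 PAX8 peaks, 6 (13.3%) did, where 13.4% of all PAX8 peaks did. The nearest start was that of a member for 2 of those 10 (Thra and Thrb) and 3 of those 6 (Dio1 and Thrb). No factor peak of the windows lay in an H3K27me3 region of that library, where 0.157% of all NKX2.1 and 0.585% of all PAX8 peaks did. None did in the ND libraries either, where the shares of all NKX2.1 peaks were 0.184% in WT and 0.259% in Glis3KO and those of all PAX8 peaks 0.582 and 0.917%. In Glis3KO-LID, 2 NKX2.1 peaks did (3.92%, against 1.54% of all), the peak upstream of Crym and one in the Slc7a8 window nearest the start of Gm29776, and no PAX8 peak, against 2.92% of all. The PAX8 peak over the Dio1 start was covered by H3K4me3 over 145, 176, 255 and 278 of its 300 bases in the 4 libraries. At Thrb, the promoter pair and the PAX8 peak over the start were covered in full in the 4 libraries. The NKX2.1 peak upstream of Thra was covered over 143, 300, 300 and 0 bases, and the NKX2.1 peaks upstream of Dio2, Slc16a10 and Crym over none in any library.

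H3K4me3 was present at a start of 7, 7, 6 and 7 of the 9 members in the 4 libraries, against 62.2, 62.5, 63 and 60.1% of all protein-coding genes. H3K27me3 was present at 2, 2, 1 and 3 members, against 6.44, 8.68, 6.5 and 17.5%. For 6 members (Dio1, Dio3, Slc16a10, Slc7a8, Thra and Thrb) H3K4me3 was present in all 4 libraries, as for 56.6% of genes, and for 6 (Dio1, Dio2, Slc7a8, Slco1c1, Thra and Thrb) H3K27me3 was in none, as for 82.3%. The calls thus varied between libraries for Dio2, Slc16a10 and Crym. The share of all protein-coding genes whose calls varied in any way was not counted. The share with the same pattern is given below for each of these genes. In the following, values are bases covered out of the 2001 within 1 kb of a start, and 4 values stand in the order of libraries given above.

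**Figure D3:**
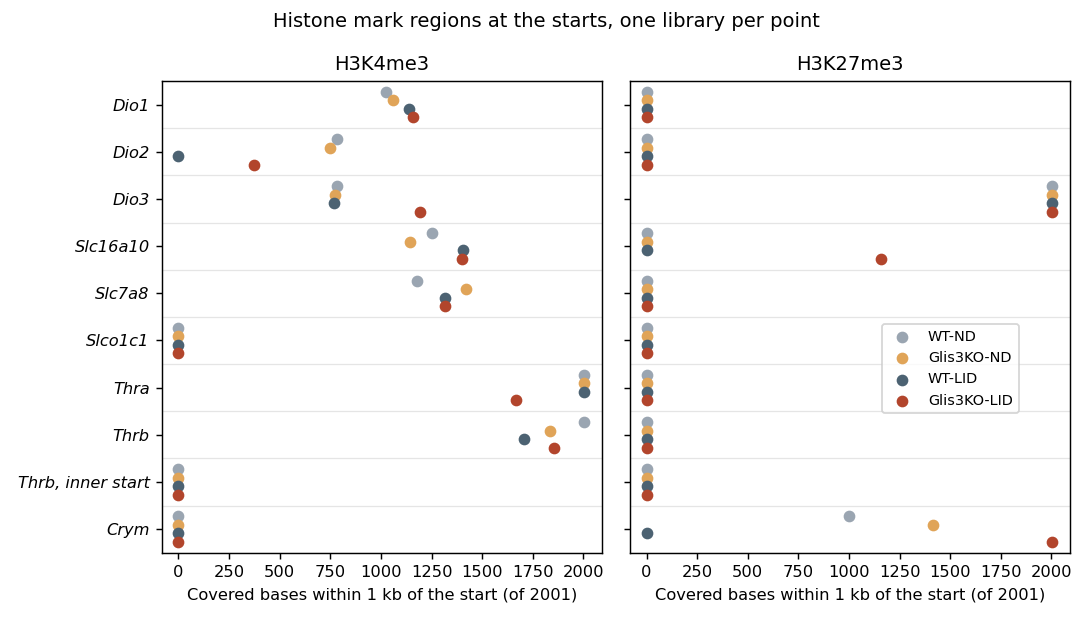
Bases covered by H3K4me3 (left) and H3K27me3 (right) within 1 kb of each curated start, of 2001, with 1 point per library and no error bars. Dio2 lacked H3K4me3 in WT-LID, Dio3 carried both marks in the 4 libraries, and Crym carried H3K27me3 in 3.

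At Dio1, H3K4me3 covered 1027, 1058, 1137 and 1160 bases. The 4 libraries were close to each other in this window, whose downstream side was covered in full in each. Over the whole gene they were less alike, with H3K4me3 over 2762, 1811, 2382 and 3172 bases. H3K27me3 was absent from the gene in all 4 libraries. The regions reached at most 159 bp upstream and 1810 to 2761 bp downstream of the start, so the mark lay over the first part of intron 1. The Glis3KO-LID library had a second Dio1 region (chr4:107301891-107302540) 4628 to 5277 bp downstream, next to the intron 1 pair at 4361 and 4336 bp. That region was 650 bp wide, and 16.6% of the regions of its list were narrower.

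Dio2 was the member whose H3K4me3 call differed between libraries, with 781, 748, 0 and 372 bases. The region lay in exon 1, downstream of the start, and had a width of 800 and 806 bp in the ND libraries of WT and Glis3KO and of 501 bp in Glis3KO-LID, the last being the narrowest width in the lists. In WT-LID the nearest H3K4me3 region was 644.6 kb away. This pattern of calls, missing in WT-LID only, was shared by 104 protein-coding genes, or 0.495%. By summed difference of covered bases over the 8 histone libraries, the genes most like Dio2 were Vwa1 (291 bases), Insl6 (312) and Serpinf1 (396).

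Dio3 carried both marks at its start in every library, a state found for 2.38% of protein-coding genes. H3K4me3 covered 784, 772, 768 and 1194 bases, and H3K27me3 covered all 2001 in each. The H3K27me3 regions differed in width, with 2515, 9001, 7158 and 10792 bp. They were among the wider ones of their lists, of which 75, 93.6, 92.7 and 95.2% were narrower. The H3K4me3 region of Glis3KO-LID reached 1763 bp upstream, and the other 3 reached 358 to 574 bp.

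**Figure D4:**
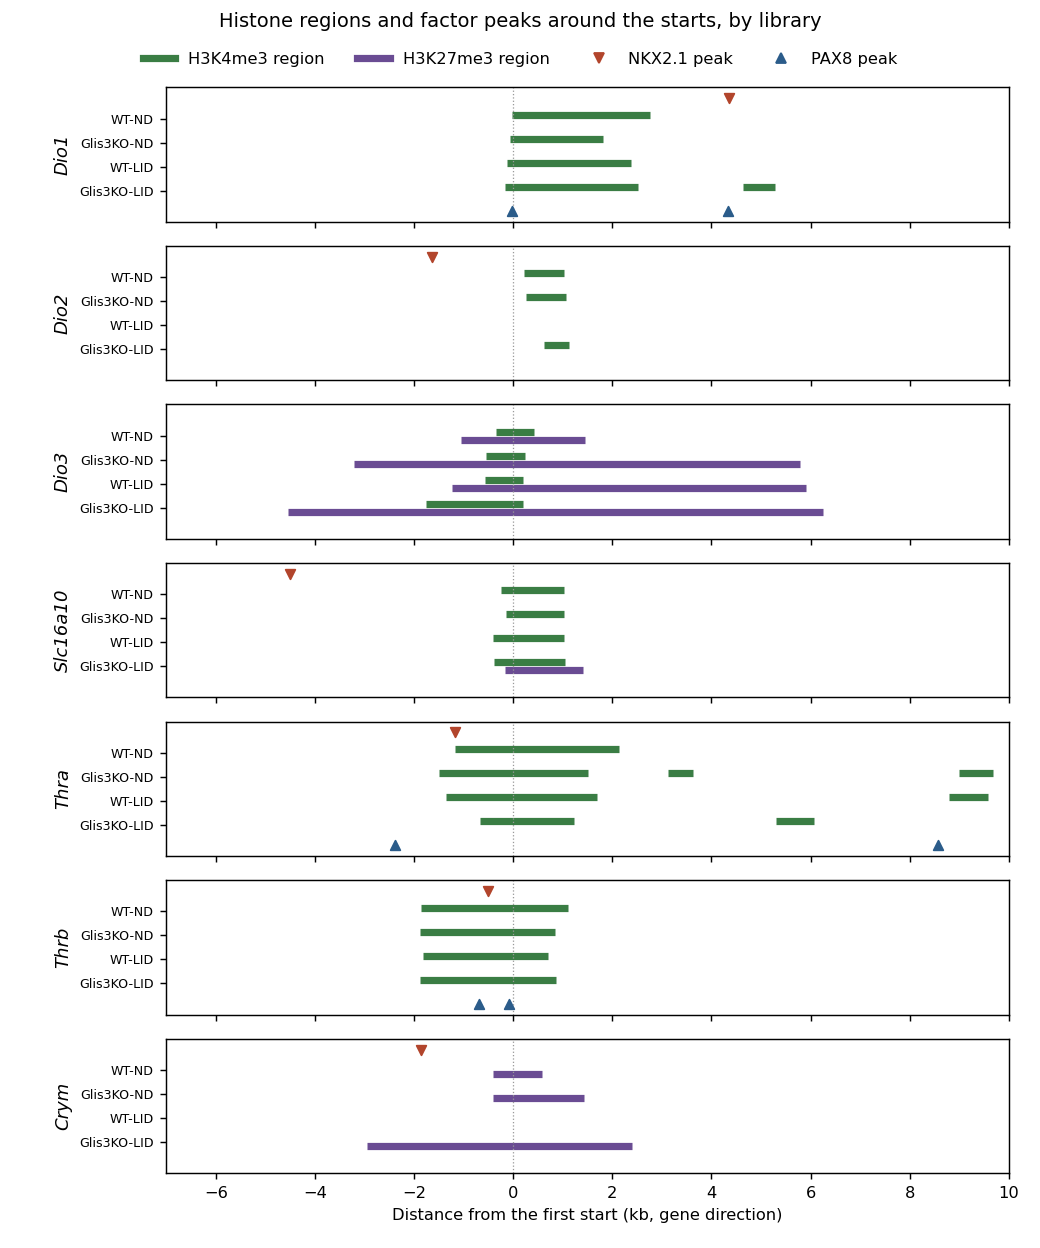
H3K4me3 (green) and H3K27me3 (purple) regions of the 4 libraries around the first start of 7 members, by distance from the start in kb in the direction of the gene, with NKX2.1 (red) and PAX8 (blue) peak midpoints above and below. The H3K27me3 region of Dio3 ranged from 2515 to 10792 bp in width, that of Crym was missing in WT-LID, and that of Slc16a10 was present in Glis3KO-LID.

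Among the transporters, Slc16a10 had H3K4me3 over 1254, 1145, 1404 and 1399 bases. H3K27me3 at its start was present in Glis3KO-LID, over 1160 bases, and in none of the other 3 libraries. That library also had an H3K27me3 region in intron 1 (chr10:40113224-40114224, 1001 bp, the narrowest width in the list). H3K27me3 in Glis3KO-LID only was found for 7.33% of protein-coding genes, and together with H3K4me3 in the 4 libraries for 3.36%. With that library cut to its 2631 widest regions, as many as WT-LID held, the Slc16a10 start had no H3K27me3. The genes most like Slc16a10 over the 8 libraries were 1190005I06Rik (280 bases), Fam120c (388) and Iqsec2 (405).

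Slc7a8 had H3K4me3 over 1180, 1422, 1317 and 1316 bases and no H3K27me3. The lowest value was that of WT-ND and the highest that of Glis3KO-ND, with the LID libraries between them. Slco1c1 had neither mark at its start in any library, as did 29.8% of protein-coding genes. The nearest H3K4me3 region was 273.5 to 273.6 kb away in the 4 libraries.

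Both receptor genes were broadly marked at their first start. At Thra, H3K4me3 covered 2001, 2001, 2001 and 1668 bases, in regions of 3317, 2996, 3048 and 1901 bp. The Glis3KO-LID region ended 667 bp upstream of the start, where the others reached 1173 to 1495 bp, and so it did not reach the NKX2.1 peak at 1181 bp. The same library had the shortest H3K4me3 list over all genes, with a median width of 1301 bp against 1404 to 1460 bp. Further H3K4me3 regions lay in intron 1 of Thra in Glis3KO-ND, WT-LID and Glis3KO-LID. Those at 9003 to 9674 bp in Glis3KO-ND and 8799 to 9575 bp in WT-LID lay just downstream of the PAX8 peak at 8581 bp. At Thrb, H3K4me3 covered 2001, 1835, 1708 and 1856 bases around the first start, with upstream edges 1831 to 1886 bp from it, and none around the second. Neither receptor gene had H3K27me3.

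Crym was the reverse of Dio1, with H3K27me3 and no H3K4me3. H3K27me3 covered 1001, 1417, 0 and 2001 bases at its start, in regions of 1001, 1838 and 5362 bp in the 3 libraries that had one. The WT-ND region had the narrowest width in its list, and it was lost when the list was cut to its 2631 widest regions, among ties broken by position. With all lists cut to that number, the Crym start kept H3K27me3 in both Glis3KO libraries and had it in neither WT library. The WT-ND call there was decided by the order of ties, and it was present under every other alternative. The nearest H3K4me3 region was 98.1 to 98.4 kb away. H3K27me3 missing in WT-LID only was shared by 249 protein-coding genes, or 1.19%. The genes most like Crym were Chga (74 bases), a marker of C cells, Pnma3 (85) and Cyp4x1 (316). H3K27me3 was present at 3, 3, 1 and 4 of the 5 C cell markers, among them Chga with 1001, 1491, 0 and 2001 bases and Calcb with 658, 2001, 0 and 2001. Over the 34 markers of all cell types it was present at 6, 8, 4 and 15. The WT-LID list was the shortest of the mark by number of regions. It covered 7.5 Mb, against 7.47 Mb in WT-ND, and marked a start of 6.5% of protein-coding genes, against 6.44%. The part of C cells and of list length in the Crym pattern was not tested.

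The 33 other genes of the pathway gave a setting for the members. NKX2.1 and PAX8 each had a peak in the window of all 33, against 79.1 and 80.7% of protein-coding genes, and 29 had a pair, against 64.8%. The median was 7 peaks of each factor, against 4 and 5 for the members and 3 and 4 for all protein-coding genes. These are counts per window and not densities, and the lengths of the pathway windows were not taken into account. The pathway list was also chosen with earlier results of these data known. The receptor coactivators Ncoa2 and Ncoa1 had 13 and 9 pairs, and Eefsec, the elongation factor that delivers selenocysteine for the deiodinases and other selenoproteins, had 9. H3K4me3 was present at 25, 28, 25 and 26 of the 33, against 62.2, 62.5, 63 and 60.1% of protein-coding genes, and H3K27me3 at 1, 3, 1 and 3, against 6.44, 8.68, 6.5 and 17.5%.

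**Figure D5:**
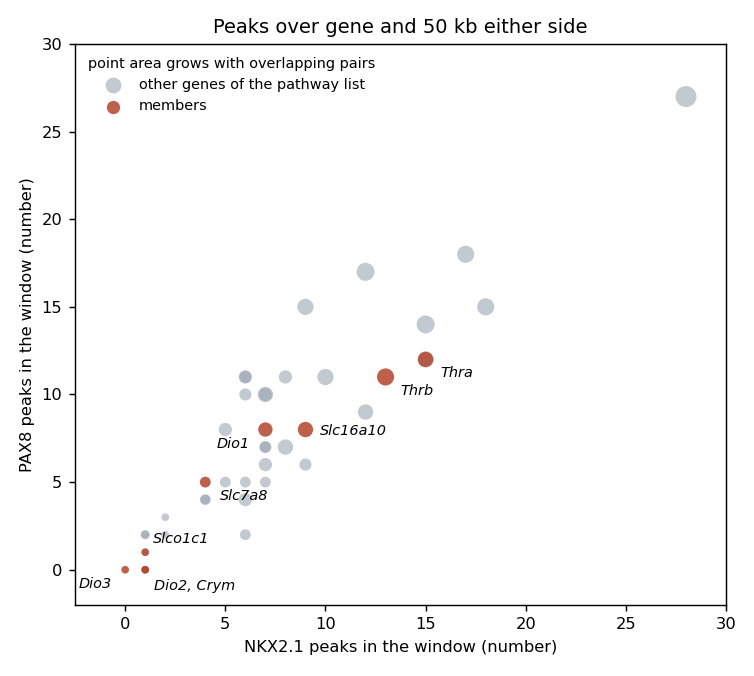
NKX2.1 peaks (x axis) and PAX8 peaks (y axis) per window for the 9 members (red) and the 33 other pathway genes (grey), with point area growing with the number of overlapping pairs. Thra and Thrb lie among the pathway genes with many peaks, and Dio2, Dio3, Slco1c1 and Crym at the lower left with at most 1 of each.

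The call differed between libraries for 6 of the 33 genes. The share of all protein-coding genes with a differing call was not counted, so whether this is many is unknown. Rxrg, a partner of the receptors, had H3K4me3 over 0, 1185, 0 and 862 bases and H3K27me3 over 53, 585, 0 and 2001, so H3K4me3 was called in both Glis3KO libraries and in neither WT library. The transporter gene Slco2b1 had the same H3K4me3 calls with 0, 501, 0 and 501 bases, each at the narrowest width of the lists. Sult1a1, a sulfotransferase of thyroid hormones, had H3K4me3 in Glis3KO-ND over 629 bases and in no other library. Pstk, a kinase of selenocysteine synthesis, had 1021, 755, 896 and 0 bases. Of the H3K27me3 calls, Hr, a corepressor that is a target of the receptors, had 0, 981, 0 and 2001 bases, and the transporter gene Slco4a1 had 0, 810, 535 and 1274.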

How the data were processed

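Per the study's methods, the authors dropped low-quality reads and trimmed the rest (Cutadapt 1.12). Unique single-end alignments to mm10 came from Bowtie 1.2, Picard 1.110 took out duplicates, and HOMER 4.10.3 called peaks, those of a factor against that library's input. The submitters' processing notes also name bedtools 2.24.0. The deposited lists give position and name only, with no score or count, so sequencing depth is unknown and a weak and a strong peak weigh alike. The deposited factor lists hold more peaks than the study's text gives, so the threshold behind them is unsure. For histone regions, the use of an input is not stated in the sources used here.

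Positions were counted from 1. Genes and starts came from curated RefSeq transcripts of GRCm38 (the mm10 build), and peaks were shared or placed by an overlap of at least 1 bp, in Python 3.11.15 with scipy 1.17.1 (Wilson intervals), after a check of the interval code on simulated data. With 1 library per group, values are given with the percent of all 21000 protein-coding genes, and no test was run. The 9 genes and the pathway and marker lists were chosen with earlier results of these data known. All 9 genes are named, pairs in a gene or within 5 kb of its start are given by position, and pathway genes are named where a call differed between libraries or for the most pairs. Likeness is the summed difference of covered bases over the histone libraries. The 3 PCCl3 rat lists and 8 input samples were not used here. The unified histone lists served for an alternative only.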

Additional observations from a re-analysis of the deposited data

Results flagged for a closer look

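At 4 genes, H3K4me3 coverage within 1 kb of a start, Glis3KO less WT, had opposite signs on the 2 diets. This was not tested, since each value is 1 library. The change of this difference from ND to LID was 405 bases at the Dio2 start, 438 at Dio3, -243 at Slc7a8 and 314 at the first Thrb start, each of the 2001 bases around the start. At Dio2, Glis3KO had 748 bases and WT 781 on the ND, and 372 and 0 on the LID. The whole Dio2 regions on the ND were 806 bp in Glis3KO and 800 bp in WT, so the ND sign there depends on the window. The Dio3 value rests on the Glis3KO-LID region alone, since it covered 1194 bases where the other 3 libraries covered 768 to 784. At Slc7a8 the sign on the LID rests on 1 base, 1316 in Glis3KO and 1317 in WT, and on the cut at 1 kb. The whole Slc7a8 regions were wider in Glis3KO on both diets. They measured 1448 bp against 1317 bp in WT on the LID, and 1607 against 1229 bp on the ND. Without replicates, none of these differences can be set against the spread between libraries of one group.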

How the results depend on the processing

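Of 82 alternative values of the 13 main counts, 72 stayed within 1.5 times of the value reported. The window decided most of the rest. With the gene alone, 4 members had an NKX2.1 peak and 3 a pair, and the gene bodies held 17 NKX2.1 and 16 PAX8 peaks. Within 5 kb of a start, 3 members had a PAX8 peak and 2 a pair, and there were 6 NKX2.1 and 5 PAX8 peaks. With 20 kb either side, PAX8 peaks came to 29. With each list cut to its widest regions, H3K27me3 in WT-ND was left at 1 member, Dio3. Ties at the narrowest width kept were broken by position, which decided the Crym call there. The Dio2 start kept H3K4me3 in both ND libraries and lacked it in WT-LID under every alternative, and lost it in Glis3KO-LID with 0.5 kb either side or with 500 bp required. Among values of single genes, 219 of 270 stayed within 1.5 times.

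The lists hold no score by which to filter, and every call rests on the authors' threshold. No paired analysis was possible because each group has 1 library and the labels give no replicate numbers. For the same reason leaving out a replicate was not run.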
